A study of Mus musculus with 6 samples.

Results

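The Ifi200 family (also called HIN-200 or PYHIN) is a cluster of interferon-inducible genes on distal mouse chromosome 1. Member probes were those whose array name, or whose RefSeq accession under its current symbol, was Ifi202b, Ifi203, Ifi204, Ifi205, Ifi211, Mnda, Mndal, Aim2 or Pyhin1. Every such probe was used, because the genes are near-identical copies in places. The rule found 7 of the 34797 names on the array, read by 14 of its 55681 probes: 4 named Ifi203, 3 named Pyhin1, 2 each named Ifi202b and Ifi204, and 1 each named Mnda, Mndal and Aim2. The other 2 of the 9 listed names have no probe of their own. The probe named Mnda carries the accession now called Ifi211, and the array lists the accession of Ifi205 for it as well, so Ifi205, Ifi211 and Mnda were read by the same probe. The accession of the Pyhin1 probes is now called Ifi209.

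The samples were whole testes of male mice aged 3 months, taken 10 days after the scrotum was heated once to 43 °C for 20 min. Of the 6 arrays, 3 were of wild-type C57BL/6 mice (B6) and 3 of the congenic strain B6.MRLc1-(D1Mit202–D1Mit403), which carries the distal chromosome 1 stretch of MRL mice from 67.97 to 81.63 cM on a C57BL/6 background. Both strains were heated and kept free of specific pathogens, and without unheated samples in the comparison the values describe strains, not heat. The labels give the stretch in cM and the array gives probe positions in bases, which were not converted into each other. The MRL sequence under the probes was not analysed here.

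Ifi200 proteins share a C-terminal HIN domain that binds DNA, and most also carry an N-terminal pyrin domain through which they bind other proteins. Aim2 senses DNA in the cytosol and assembles an inflammasome with the adaptor Pycard and the protease Casp1. Ifi204 senses DNA upstream of Sting1 and type I interferon, whereas Ifi202b lacks the pyrin domain and restrains Aim2. Differences of Ifi202b between inbred strains are known from studies of lupus-like disease in mice.

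The probes are 60 bases long, and the middle 30 bases (positions 16 to 45 from the 5′ end) are shown for those on which the strain comparison turns, so that the copies can be told apart. They are in lower case throughout because no base is singled out.
Ifi202b A_51_P151182: agatgagtggtttctgagagctacgaggta
Ifi202b A_55_P2032167: acatacaacatccagctcttagttgtggga
Ifi204 A_55_P1975560: tctggaaccatacttctgaaaacctgaatg
Ifi204 A_55_P2066578: aatatcagtcctataaagaccatctcttaa
Mnda A_55_P1962918: cagctttagtagtatatccaaccattgatt
Mndal A_65_P17218: gtcaagcacaaaaaatgaagaagaaaataa
Ifi203 A_55_P1988202: atctgtactgacagtttgcatctaataaag
Ifi203 A_55_P1966731: tgcatttgctatggaattggagatgataca
Aim2 A_55_P2080130: tattggggtatgtgatgtgaaattccctag

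Each member probe was searched for runs of 14 bases shared with any other probe of the array, and only probes with such a run were aligned. The Ifi202b and Mnda probes shared no such run. Copies with scattered differences are missed by this search, so it does not show that a probe is specific. The Gm7897 probe A_55_P2006084 of the cluster, for instance, resembles Ifi202b A_55_P2032167 without such a run. Among the aligned probes, the closest match of Ifi204 A_55_P1975560 lay in the cluster itself. It was in a reverse-strand transcript that the array annotation places at chr1:175705225-175717250 (mm9). Over 30 aligned bases of probe A_55_P1975560, 28 were identical, and the differences were G5A and C12A, counted from the 5′ end of the Ifi204 probe. They stand in capitals here.
Ifi204 A_55_P1975560: agtcGggagaaCctctctggaaccatactt
reverse-strand transcript A_30_P01024163: agtcAggagaaActctctggaaccatactt
The other bases of both probes lie outside this overlap.

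Levels are log2 of the processed signal minus the log2 of the 75th percentile of that array. A probe is called detected on an array where the scanner software marked its signal as well above background, and a probe not detected has a bound rather than a level. Probes with values on at least 4 arrays and detected on at least 3 of the 6 were tested, and a probe was called when limma's Benjamini-Hochberg adjusted p over all 36626 tested probes was under 0.05. Differences are B6.MRLc1 minus B6, with the standard error (SE) of the limma fit. Of all spots, 68.6% to 69.0% were detected on a B6 array and 58.0% to 64.7% on a B6.MRLc1 array, and no spot was saturated. The B6 arrays filled row 1 of the slide and the B6.MRLc1 arrays row 2, so row and strain cannot be told apart. The testis showed its markers: all 7 Sertoli cell markers and 5 tested Leydig cell markers were detected on all 6 arrays.

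Of the 14 member probes 10 were tested and 4 were called, namely 2 that were higher in B6.MRLc1 and 2 that were lower. Among all probes tested 1.79% were called, 0.238% higher and 1.55% lower. The called members were both Ifi202b probes, which rose, and the Mnda probe and 1 Ifi204 probe, which fell. The filter let through the Ifi202b probe A_51_P151182 only by its B6.MRLc1 arrays and the Pyhin1 probe A_55_P2035509 only by its B6 arrays. The Ifi202b probe A_55_P2032167, detected on 1 B6 and 3 B6.MRLc1 arrays, would not have passed by its B6 arrays alone. Such passage favours a difference at these probes, and the count describes the tested probes rather than the family. The number of called members was 6 without B6 array 3 and 1 without any other single array, and the member left in those fits was the Ifi202b probe A_51_P151182. With quantile scaling 2 were higher and 1 lower, and with normexp background correction 2 were higher and 4 lower. With normexp 2.72% of all tested probes were called. For the other refits named here the share over all probes is not given, so their counts describe the settings rather than the family.

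**Figure D1:**
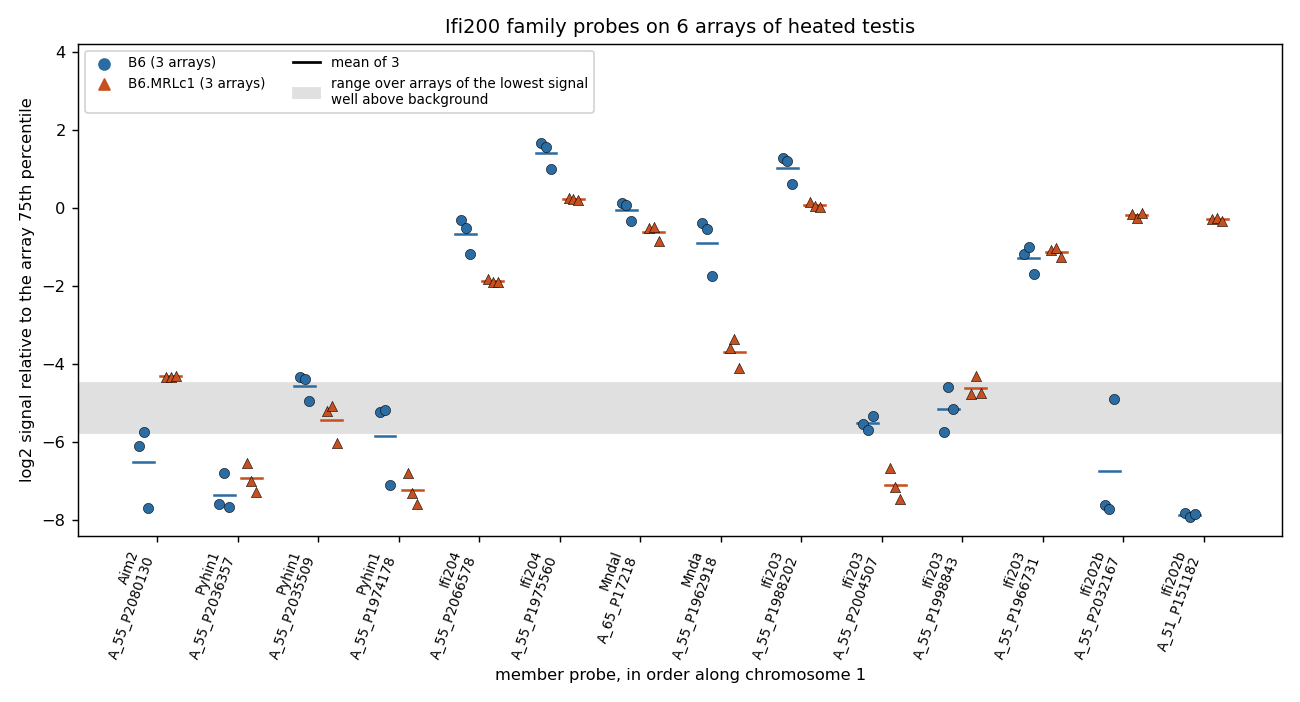
Level (log2 processed signal minus that of the array's 75th percentile) of the 14 member probes, in their order along chromosome 1, with 3 B6 arrays (circles), 3 B6.MRLc1 arrays (triangles) and the mean of each strain (bars). The grey band spans, over the 6 arrays, the lowest detected signal (-5.76 to -4.49). At both Ifi202b probes the B6.MRLc1 arrays lie near 0 and the B6 arrays in or below the band, whereas at Ifi204, Mnda, Mndal and the Ifi203 probe A_55_P1988202 the B6 arrays are the higher ones.

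Ifi202b was read at background in B6 and clearly in B6.MRLc1. At probe A_51_P151182 (mm9, chromosome 1, 175892953 to 175893982, reverse strand; the position is longer than the probe, so its bases are not contiguous in that annotation) B6 arrays 1 to 3 gave processed intensities of 3.0, 2.7 and 2.5, and B6.MRLc1 arrays 1 to 3 gave 458, 505 and 447. The log2 levels were -7.82, -7.91 and -7.85 in B6 and -0.28, -0.26 and -0.33 in B6.MRLc1. The strains did not overlap, and the probe was detected on 0 of 3 B6 arrays and 3 of 3 B6.MRLc1 arrays.

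With no detection in B6, only a bound on the fold can be given: at this probe B6.MRLc1 held at least 42.8-fold more Ifi202b signal. The bound sets the B6.MRLc1 mean, -0.29 ± 0.04 (SD, n = 3), against the lowest detected signal of each B6 array. The fitted difference was 7.57 (SE 0.06; limma adjusted p = 1.01e-06) from a B6 mean of -7.86 ± 0.05 (SD, n = 3), which is a surrogate value for spots near background. With normexp background correction, whose offset of 50 draws dim values together, the difference was 3.43 (10.8-fold; limma adjusted p = 9.37e-07). The probe passed the filter through B6.MRLc1 alone. The fit with no filter on dim probes uses the same values of this probe, so its difference is the same by construction (limma adjusted p = 1.74e-05). With dim values raised to a floor the difference was 5.42 (limma adjusted p = 4.97e-06), and there each B6 value is the floor of its array. Since the B6 values are surrogates or floors, these p values do not measure the spread of Ifi202b within B6.

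The other Ifi202b probe, A_55_P2032167 (175892789 to 175892848), read intensities of 3.4, 3.1 and 19.5 in B6 and 503, 509 and 510 in B6.MRLc1. Its log2 levels were -7.63, -7.72 and -4.90 in B6 and -0.15, -0.25 and -0.14 in B6.MRLc1. B6 array 3 was the 1 B6 array on which it was detected, and the strains did not overlap. The difference was 6.57 (SE 0.77; limma adjusted p = 0.0295). It was 5.27 with dim values raised to a floor (adjusted p = 0.00278), 4.72 in the deposited values (adjusted p = 0.00594) and 3.12 with normexp. Without B6 array 3 no B6 array is left on which the probe was detected, so the fitted 7.49 there is not a level difference. The call was lost in 7 of 15 alternatives, among them the fits without each of the other 5 arrays (adjusted p 0.0695 to 0.104). Both Ifi202b probes read in the same direction, and the spread of the second one within B6 came from 1 array.

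Ifi204, the DNA sensor also called p204, was lower in B6.MRLc1 at both of its probes. At A_55_P1975560 (175677647 to 175677706) the levels were 1.67, 1.55 and 1.00 in B6 and 0.26, 0.24 and 0.20 in B6.MRLc1. The probe was detected on all arrays, the strains did not overlap, and the lowest B6 array was array 3. Ifi204 fell by 1.17 (2.26-fold lower; SE 0.18; limma adjusted p = 0.0454) from 1.41 ± 0.36 to 0.23 ± 0.03 (SD, n = 3). In whole testis, fewer cells of a type and less RNA per cell cannot be told apart. At A_55_P2066578 (175677552 to 175677611) the levels were -0.32, -0.50 and -1.17 in B6 and -1.83, -1.89 and -1.91 in B6.MRLc1. The difference there was -1.21 (SE 0.22), close to that of the first probe, and was not called (limma adjusted p = 0.0648). With normexp both Ifi204 probes were called, at -1.14 (adjusted p = 0.0163) and -0.97 (adjusted p = 0.0293). The call of A_55_P1975560 was lost in 9 of 16 alternatives, 5 of them the fits that left out an array other than B6 array 3 (adjusted p 0.112 to 0.149).

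The probe named Mnda (175826600 to 175826659), which reads Ifi211 and by the array's own listing Ifi205, showed the widest fall among the members. Its log2 levels were -0.40, -0.53 and -1.73 in B6 and -3.60, -3.37 and -4.09 in B6.MRLc1, and the probe was detected on all 6 arrays. The strains did not overlap, and B6 array 3 again lay nearest to B6.MRLc1. The probe fell by 2.80 (6.95-fold lower; SE 0.40; limma adjusted p = 0.0400) from -0.89 ± 0.74 to -3.69 ± 0.37 (SD, n = 3). With normexp the fall was smaller, -1.87 (3.65-fold; adjusted p = 0.0183). Its call was lost in 7 of 16 alternatives, and among the fits without 1 array it held only without B6 array 3 (-3.22; adjusted p = 0.0277), while in the other 5 the adjusted p was 0.0915 to 0.131. Which of the copies gave this signal cannot be told from a shared probe.

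Mndal, a close relative of Mnda, read 0.11, 0.07 and -0.33 in B6 and -0.51, -0.49 and -0.85 in B6.MRLc1 at its probe A_65_P17218 (175787550 to 175787609). The strains did not overlap, with B6 array 3 only 0.17 above the highest B6.MRLc1 array. The difference of -0.57 (SE 0.16) was not called (limma adjusted p = 0.149), nor was it in any of 16 alternatives.

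The 4 Ifi203 probes did not read alike. At A_55_P1988202 (175850536 to 175850595) the levels were 1.27, 1.21 and 0.60 in B6 and 0.14, 0.05 and 0.02 in B6.MRLc1. These strains did not overlap, and the difference of -0.96 (SE 0.19; limma adjusted p = 0.0748) was not called. It was called with normexp (-0.88; adjusted p = 0.0372) and without B6 array 3 (-1.17; adjusted p = 0.0221), 2 of its 4 calls in 16 alternatives. At A_55_P1966731 (175854206 to 175854265), less than 4 kb away and also detected on all arrays, the levels were -1.19, -1.01 and -1.69 in B6 and -1.07, -1.03 and -1.26 in B6.MRLc1. Here the strains overlapped, and the difference was 0.18 (SE 0.18; limma adjusted p = 0.640), which moved to -0.019 without B6 array 3. The arrays thus gave no common direction for Ifi203, and which transcript forms each probe reads was not analysed here.

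Of the remaining Ifi203 probes, A_55_P1998843 was dim and detected on 2 arrays of each strain, with a difference of 0.56 (SE 0.31; limma adjusted p = 0.390) and overlapping strains. A_55_P2004507 was detected on 1 B6 array and 0 B6.MRLc1 arrays, and was not tested.

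Aim2 and Pyhin1, at the proximal end of the cluster, were near background. The Aim2 probe A_55_P2080130 (175396036 to 175396095) read -6.11, -5.75 and -7.70 in B6 and -4.32, -4.33 and -4.30 in B6.MRLc1. It was detected on 0 B6 and 2 B6.MRLc1 arrays, so it was not tested. The strains did not overlap. Its normexp levels were -3.26, -3.19 and -3.20 in B6 and -2.66, -2.80 and -2.76 in B6.MRLc1, which do not overlap either. Near background this is no sign of a difference. The Olfr1408 and Gm7897 probes, detected on no array, also lay higher in B6.MRLc1 without overlap. With normexp the Olfr1408 probe did so as well, at -3.45 to -3.44 in B6 and -3.27 to -3.06 in B6.MRLc1.

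Of the 3 Pyhin1 probes, A_55_P2035509 (175576265 to 175576324) was detected on 3 B6 and 0 B6.MRLc1 arrays. Its levels were -4.32, -4.38 and -4.96 in B6 and -5.20, -5.07 and -6.03 in B6.MRLc1, and on this scale the bound was at least 1.31-fold more signal in B6. The difference was not called (limma adjusted p = 0.208). With normexp it was -0.12 (1.09-fold), below that bound. The probes A_55_P1974178 and A_55_P2036357 were detected on 2 and 0 B6 arrays and on 0 B6.MRLc1 arrays, and were not tested.

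The member probes that could be followed on every array moved together across arrays, with 1 exception. Over the 6 arrays, Pearson's r between the Ifi204, Mnda, Mndal and Ifi203 A_55_P1988202 probes was 0.94 to 0.998, whereas the Ifi203 probe A_55_P1966731 had r of -0.09 to 0.12 with them. These are descriptions over 6 arrays that share slide rows and strain. B6 array 3 was the lowest of the B6 arrays at all 6 of these probes, while it was the lowest B6 array for 31.3% of 25275 genes. It lay below the mean of B6 arrays 1 and 2 by a log2 difference of -1.27 at the Mnda probe, -0.61 and -0.76 at the Ifi204 probes, -0.64 and -0.59 at the Ifi203 probes and -0.42 at Mndal. On it the Ifi204 probes lay 0.74 and 0.66 and the Mnda probe 1.63 above the highest B6.MRLc1 array.

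**Figure D2:**
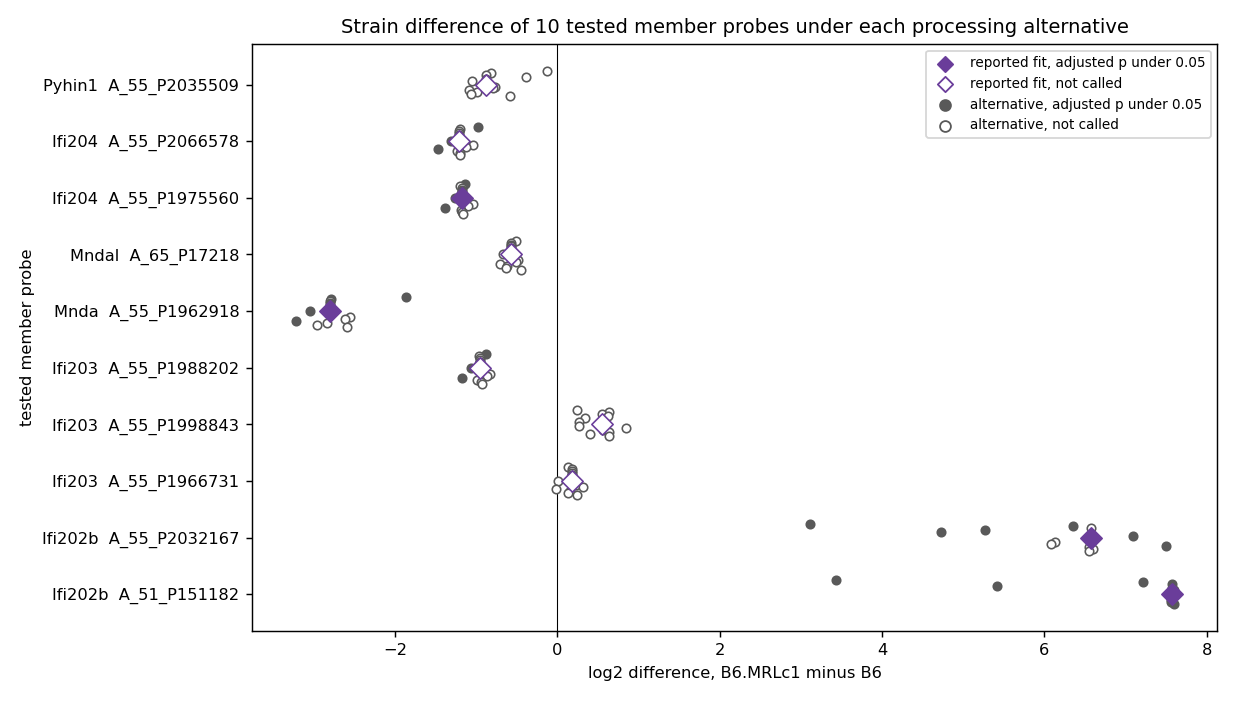
Log2 difference, B6.MRLc1 minus B6, of the 10 tested member probes in the reported fit (diamonds) and under each processing alternative (circles), filled where limma's adjusted p was under 0.05. Both Ifi202b probes lie at 3.12 or above throughout, the Mnda probe lies at -1.87 or below, and the Ifi203 probe A_55_P1966731 lies between -0.019 and 0.32.

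By likeness of pattern, the genes with the highest Pearson r over the 6 arrays were taken for each of these probes among 16148 genes with a symbol. They were Bmp7 (0.999), Slc24a5 and Ccdc33 for the Mnda probe, Spns2 (0.999), Galnt12 and Olfr1372-ps1 for Ifi204 A_55_P1975560, and Timp1 (0.996), Mgp and Spns2 for Ifi204 A_55_P2066578. For Ifi203 A_55_P1988202 they were Chil1 (0.995), Slc4a11 and Mmp11, and for Mndal they were Skiv2l (0.995), Fblim1 and Faim2. The Ifi203 probe A_55_P1966731 was most like Tbc1d4 (0.983), Fbxo25 and Itga4, none of which appear for the other probes. With 6 points and 16148 candidates, high values of r arise easily, so these names are a description of the arrays only.

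The promoters of the family were read from RefSeq windows on GRCm38.p6, from 250 bases before to 50 bases after each start. GAAANNGAAA, the core of the interferon-stimulated response element, was searched on both strands and is marked in capitals. It was found in 3.44% of 32851 windows of this length, and in at least 1 window of 3.99% of 27025 genes. Of the 8 current symbols of the listed genes looked up, 7 had a window and Ifi204 had none. Of these 7, 4 held the motif: Mndal, Ifi211, Ifi203 and Ifi205. Ifi203 and Mndal have 2 windows each, and 1 of the Ifi203 windows, chr1:173942623-173942922, held no match. The matched stretches are printed with their place, since they show how alike the copies are.
Mndal, chr1:173880204-173880233, reverse strand: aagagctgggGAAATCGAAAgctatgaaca
Ifi203, chr1:173942508-173942537, reverse strand: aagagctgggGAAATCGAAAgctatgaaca
Ifi211, chr1:173913064-173913093, reverse strand: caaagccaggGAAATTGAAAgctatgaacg
Ifi205, chr1:174031870-174031899, reverse strand: ccaggccaggGAAATTGAAAgctatgaaca
The 30 bases of Mndal and Ifi203 are identical. The motif lay 36, 35 and 37 bases before the start in Mndal, Ifi203 and Ifi211, and 134 bases before it in Ifi205. A further match in the reverse orientation was found in a window of Mndal and in that of Ifi205.

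Neither the windows of Aim2 and Ifi209 nor that of Ifi202b held GAAANNGAAA. TTCNNNGAA, the core of the interferon-gamma activated site, reads the same on both strands, was counted apart from the first motif and was found in 8.3% of windows and 9.55% of genes, and among the listed genes in Ifi202b alone. The 80 bases before the Ifi202b start, on the reverse strand of the B6-derived reference, are shown because Ifi202b is the member that rose. The TTCNNNGAA match of its window is not within these 80 bases.
Ifi202b, chr1:173982845-173982924: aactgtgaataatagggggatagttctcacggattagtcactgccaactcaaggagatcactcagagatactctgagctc
Of the other family genes Ifi206, Ifi207, Ifi208, Ifi213 and Ifi214, 5 of 5 held GAAANNGAAA. A match describes letters in a window and is not evidence that a factor binds there, and the MRL alleles of these windows were not read.

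The probes beside the members were examined to see how far along the chromosome the pattern reached. Within 500 kb of the first or last member probe the array held 70 other probes, of which 29 were tested and 7 were called, 0 higher and 7 lower, against 1.55% called lower among all probes. All 7 lay between the first and last member probe. Outside that span 4 probes were tested and 0 were called by limma, with 1 at an unadjusted p under 0.05. Of the 27 probes there, 23 were not tested and 2 were detected on all 6 arrays. The flanks were thus hardly read, and where the pattern ends cannot be told from them. One of the 7, A_30_P01029545, passed the filter only through its B6 arrays, and the other 6 were detected in both strains. With normexp 12 neighbours were called lower and 1, A_30_P01032739, higher (0.48; adjusted p = 0.0242; 1.19, SE 0.29 and adjusted p = 0.120 without normexp). These 2 probes were named after their values were seen. The count of 7 became 13 on leaving out B6 array 3, 0 on leaving out B6 array 1, and 1 or 2 on leaving out another array. The share called over all probes in those fits is not given, so the counts describe the settings rather than the neighbours.

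The called probe with a gene symbol was A_55_P2181222 of Pydc3, now called Ifi208, which encodes a family member. It fell by 1.06 (SE 0.16; limma adjusted p = 0.0454). A second Ifi208 probe, A_55_P2001233, read -0.20 (adjusted p = 0.169).

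The other 6 called probes were named only by position and lay over Ifi207 (AI607873 on the array), again a family gene. In all, 13 probes read Ifi207 or a reverse-strand transcript over the same stretch, 175653557 to 175672031. All 13 were lower in B6.MRLc1 with no overlap of the strains, with a median of -1.29. Of all tested probes 27.1% did not overlap and 12.9% did so by lying lower. The 13 probes read the same stretch on the same arrays, and some share bases, so they are repeated readings and not independent results. The 12 of them detected in both strains differed by -0.43 to -1.92. At the other, A_30_P01029545, detected on 3 B6 and 0 B6.MRLc1 arrays, B6 was at least 4.71-fold higher; with normexp its difference was -0.92 (adjusted p = 0.00815). The probes named for Ifi207 itself were not called, at -1.02 (adjusted p = 0.0897) and -0.99 (adjusted p = 0.0936).

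The array carries 2 probe designs for the same mm9 position in Ifi207, 175653663 to 175653722, on the reverse strand. The probes match at 59 of 60 bases and differ by A18T, counted from the 5′ end of A_55_P2081105. Bases 3 to 32 are shown with that base in capitals.
Ifi207 A_55_P2081105: tctactaaaagcagcActtaattctaagaa
reverse-strand transcript A_30_P01019537: tctactaaaagcagcTcttaattctaagaa
The first read -1.02 and the second -1.72 (adjusted p = 0.0263), and the difference between them was not tested. Next to this stretch, 6 tested reverse-strand probes over 175705225 to 175717250 had a median of -0.15, and 0 were called by limma (2 at an unadjusted p under 0.05). These 2 were A_30_P01024163, the probe that shares 28 bases with the Ifi204 probe, at -0.79 (adjusted p = 0.0971), and Gm16340 A_55_P2173210 at -0.69 (SE 0.24; adjusted p = 0.211), where the strains overlapped. Both were chosen after their values were seen. Lower signal in B6.MRLc1 was thus measured over Ifi208, Ifi207, Ifi204 and the Mnda probe, but not at each probe between them.

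**Figure D3:**
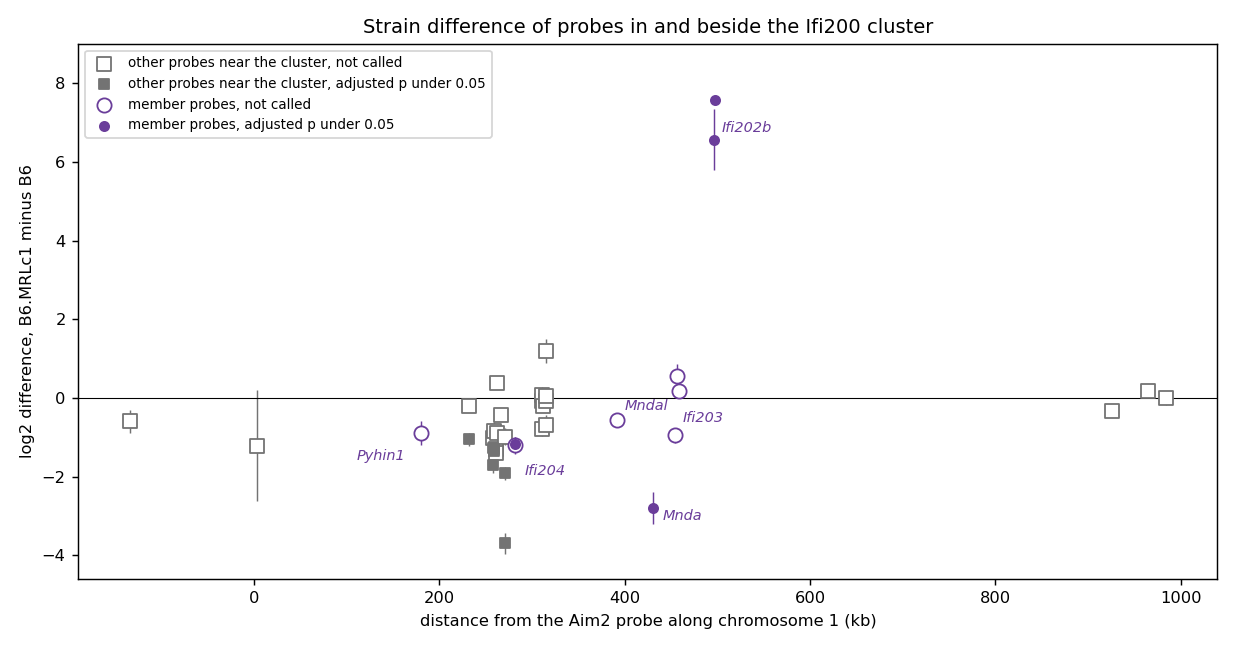
Log2 difference, B6.MRLc1 minus B6, with the SE of the fit, of the 10 tested member probes (circles) and 29 tested neighbours (squares) against distance from the Aim2 probe; filled symbols were called. The 2 Ifi204 probes lie on each other. Called probes below 0 lie between Ifi208 and Mnda, and the Ifi202b probes stand at 6.57 and 7.57.

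Genes that interferon induces elsewhere in the genome were not called. Of 43 interferon response genes 41 were tested and 0 were called by limma, and 2 had an unadjusted p under 0.05. Of all 25275 genes, each read by its brightest probe, 2% were called, 0.245% higher and 1.75% lower, and 19.4% had an unadjusted p under 0.05. The list's median difference was -0.16, against 0.018 over all genes. The 3 with the smallest p were Tap1, a peptide transporter for antigen presentation (-0.58, SE 0.16; adjusted p = 0.153), Oas2, an antiviral oligoadenylate synthetase (-0.67, SE 0.27; adjusted p = 0.260), and Parp14 (-0.35, SE 0.15; adjusted p = 0.290). With normexp Tap1 read -0.29. Without B6 array 3, 3 genes were called, namely Tap1 (-0.76), Oas2 (-0.98) and Ifit2 (-0.65), and the median was -0.36. The share called over all genes in that fit is not given.

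The tested interferon signalling genes (receptors, kinases, transcription factors and Socs1) centred on 0. Of 20 genes 17 were tested and 0 were called, with 2 at an unadjusted p under 0.05 and a median of 0.0082. The listed ligands Ifnb1, Ifna4 and Ifng did not pass the filter, so the values say nothing about them. The smallest p belonged to Socs1, a feedback inhibitor (-0.37, SE 0.12; adjusted p = 0.178), and to the transcription factors Irf1 (-0.29, SE 0.10; adjusted p = 0.227) and Irf9 (-0.27, SE 0.11; adjusted p = 0.268).

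The partners of Aim2 and Ifi204 in DNA sensing and the inflammasome were not called either. All 23 genes were tested, 0 were called and 7 had an unadjusted p under 0.05, with a median of -0.15. Il1a, an alarmin cytokine, had the smallest p (-0.83, SE 0.14; adjusted p = 0.0531), was detected on 0 B6.MRLc1 arrays, and read -0.0065 with normexp. Gsdmd, the pore-forming substrate of inflammatory caspases, followed at -0.46 (SE 0.13; adjusted p = 0.146), and Ikbke, a kinase upstream of interferon, at -1.53 (SE 0.43; adjusted p = 0.148; -0.75 with normexp). Leaving out B6 array 2 called Ikbke alone (-2.04), and leaving out B6 array 3 called Casp4 alone (-1.01). The shares called over all genes in those fits are not given. Pycard, the Aim2 adaptor, measured 0.16 (SE 0.07; adjusted p = 0.295), Casp1 -0.21 (SE 0.14; adjusted p = 0.456) and Sting1 -0.42 (SE 0.21; adjusted p = 0.337).

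A score per array was taken as the median over a list of the log2 signal minus each probe's mean over the 6 arrays. For the 6 member probes detected on all arrays the score was 0.78, 0.70 and 0.07 in B6 and -0.48, -0.54 and -0.57 in B6.MRLc1, in array order. The strains did not overlap, with B6 array 3 nearer to B6.MRLc1 than the other B6 arrays. The interferon response score was 0.29, 0.25 and -0.25 in B6 and -0.16, 0.02 and -0.14 in B6.MRLc1. Here B6 array 3 was the lowest of all 6 arrays, so the strains overlapped. The DNA sensing and inflammasome score was 0.136, 0.055 and -0.017 in B6 and -0.070, -0.027 and -0.153 in B6.MRLc1, with no overlap. Scores of the Sertoli, lymphocyte, peritubular myoid, spermatocyte, round spermatid and elongating spermatid markers did not overlap between the strains either. Separation of the strains by such a score is therefore not particular to the members.

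Macrophages express several Ifi200 genes, and the score of their markers was 0.37, 0.14 and -0.27 in B6 and -0.09, -0.10 and -0.06 in B6.MRLc1. Of 14 macrophage markers tested 0 were called, and the median difference was -0.17. Cx3cr1, a chemokine receptor, was the 1 marker with an unadjusted p under 0.05 and was the higher in B6.MRLc1 (0.79; adjusted p = 0.157). Itgam also read higher (0.14). All other markers of the list read lower in B6.MRLc1, from -0.10 (Adgre1) to -0.76 (Cd14). The log2 summed level of the 14 markers ran from 6.58 to 7.01 in B6 and from 6.66 to 6.79 in B6.MRLc1, and 13 of 14 were detected on all arrays. Of 10 lymphocyte markers 6 passed the filter and 0 were called (0 at an unadjusted p under 0.05), with a median of 0.12. Their part in the fall of Ifi204 and Mnda was not tested.

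**Figure D4:**
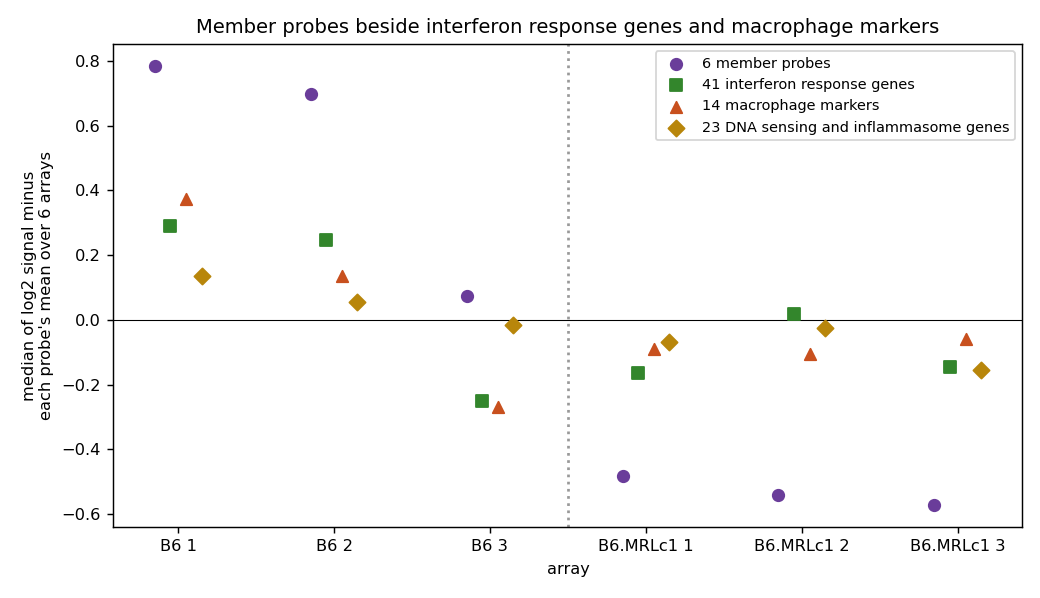
Median over each list of the log2 signal minus each probe's mean over the 6 arrays, by array, for 6 member probes, 41 interferon response genes, 14 macrophage markers and 23 DNA sensing and inflammasome genes. The member probes separate the strains (0.07 and above in B6, -0.48 and below in B6.MRLc1). The DNA sensing genes do so narrowly (-0.017 and above in B6, -0.027 and below in B6.MRLc1). The interferon response and macrophage scores of B6 array 3 lie below those of every B6.MRLc1 array.

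Among the germ cell markers 2 were called, Ldhc (-3.18; adjusted p = 0.0480) and Acr (-0.90; adjusted p = 0.0317), while Sycp1 and Sycp3 read -0.022 and -0.020 and Spaca1 0.024. The other spermatocyte and round spermatid markers read from -0.73 (Spo11) to -1.98 (Acrv1, detected on 1 B6.MRLc1 array). The medians were -0.73 over 5 spermatocyte markers and -1.37 over 5 round spermatid markers, each with 3 at an unadjusted p under 0.05. Over 5 elongating spermatid markers the median was -3.24 (0 called by limma, 5 at an unadjusted p under 0.05). For the somatic lists the medians were 0.11 for Sertoli, 0.29 for Leydig, -0.018 for endothelial and 0.17 for peritubular myoid cells, and 0.13 for spermatogonia, with 0 genes called by limma in any of them and 0 to 2 at an unadjusted p under 0.05. Their part in the members' differences was not tested.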

How the data were processed

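Total RNA of 6 testes was labelled with Cy3 from 0.1 ug and hybridised to one-colour Agilent arrays, per the labels' protocols. The deposited scanner tables hold a linear intensity per spot, background-subtracted by the software per the file headers, and flags of 0 or 1 for spots well above background, saturated or outlying. Of the scanner software, the submitters' processing notes give Agilent Feature Extraction 9.5.3, and the headers of the files give Feature Extraction 10.7.3.1. The deposited table of the whole series holds log2 values, used as an alternative. At least 99.9% of them lay within 0.05 of the scaled log2 signal centred on each probe's median over the arrays, with column medians of -0.00405 to 0.0161; how the authors made them is not stated in these sources.

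Here, control and outlier-flagged spots were dropped, processed signals were scaled to a common 75th percentile (556.8 to 669.8 intensity units before scaling), log2 was taken and spots of a probe were averaged. Strains were compared with lmFit and eBayes of limma 3.58.1 (R 4.3.3) over all 36626 probes that passed the filter, with Benjamini-Hochberg adjustment. The procedure was tested on simulated data of 36621 probes. It called 92% of the probes given a log2 shift of 2 and 99% of those given a shift of 4. It also called 15 probes given no shift. The simulated noise was independent between probes, so a shift shared by many probes of 1 array was not covered. The precision is limited by 3 arrays per strain, counted as 3 mice. In a list each gene was read by its probe of highest mean. Probe positions are mm9, as the array annotation gives them, and exons and UTRs were not analysed here. Current symbols came from RefSeq tables of GRCm38.p6, through which 27235 probes were named. For Ifi204 no promoter window was read.

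The members and lists were chosen with earlier results of these data known. By rule, the text names or counts every member probe, names the called genes of each pathway list (or, where there is none, the 3 with the smallest p), the called neighbours with a symbol, and the 3 genes most like each member probe that was detected on all arrays. Pycard, Casp1, Sting1 and genes called only in an alternative were added as partners or by their values. The alternatives were normexp, quantile scaling, other filters, a floor, the deposited log2 values, a variance trend, array weights, 1 probe per gene, the replicate number as a block, and leaving out each array.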

Additional observations from a re-analysis of the deposited data

How the results depend on the processing

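The 4 called member probes (2 higher, 2 lower) became 6 (2 higher, 4 lower) with normexp, a variance trend or array weights. They became 3 with quantile scaling or a floor (2 higher, 1 lower) and 3 with the deposited values or 1 probe per gene (1 higher, 2 lower). They were 2 among probes well above background on all 6 arrays (0 higher, because this filter removes Ifi202b) and 1 with no filter (1 higher, 0 lower). Leaving out 1 array gave 1 to 6 called members, 1 to 2 higher and 0 to 4 lower. The 7 neighbours, all lower, became 13 with normexp (12 lower, 1 higher) or array weights (13 lower), 12 with the trend (12 lower), 1 with no filter or with 1 probe per gene, and 0 to 13 without 1 array. The interferon response count was 0 to 3 and the DNA sensing count 0 to 1 without 1 array, and the latter was 1 (Il1a) with array weights or 1 probe per gene. In the fit with the replicate number as a block, 1 member probe was called (1 higher, 0 lower), as were 0 neighbours and 26 of all probes, against 654 without the block. Deviations of same-numbered arrays were at most weakly correlated over probes (-0.03, 0.14 and 0.09), against -0.14 to 0.055 for differently numbered arrays. The numbers, which were also slide columns, were not taken as pairs. Over the 10 tested members, 118 of the values under an alternative kept direction and side of the threshold, 23 lost a call, 8 gained one, and 1 turned: Ifi203 A_55_P1966731 ranged from -0.019 (without B6 array 3) to 0.32 without 1 array. Signal over background limits Aim2, Pyhin1 and 2 Ifi203 probes, and the size of the Ifi202b difference. With normexp the share called among all tested probes rose as well, to 2.72% from 1.79% in the reported fit. Apart from normexp and the block fit, the counts are given without such a share, so they describe the settings rather than the family. The cause of the changed counts was not tested.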
